A study of Mus musculus with 2 samples.

Results

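The genes described here are the replication-dependent core histone and linker histone genes, taken as every gene of the count matrix whose symbol starts with Hist1h, Hist2h, Hist3h or Hist4h. They number 64 of 17492 genes: 6 linker histone H1 genes, 17 H2A genes, 16 H2B genes, 12 H3 genes and 13 H4 genes. Of these, 57 had at least 50 unique molecular identifiers (UMIs) summed over both libraries and are called measured, namely 5 H1, 14 H2A, 15 H2B, 11 H3 and 12 H4 genes. The 7 below that number were Hist1h2bl with 45 UMIs, Hist1h2ah with 26, Hist1h4f with 25, Hist1h3h with 21, Hist1h2ao with 19, Hist2h2aa2 with 5 and Hist1h1t with 4. In the mouse annotation (GENCODE M21, build GRCm38) 51 members lay in the Hist1 cluster at chr13:21715763-23764406, 10 in the Hist2 cluster at chr3:96219865-96270132, 2 in Hist3 on chromosome 11 and 1 in Hist4 on chromosome 6.

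The samples were 2 libraries of single corneal epithelial cells, all from male C57BL/6J mice 20 weeks old. The control library pooled 4 corneas of 2 mice given citrate buffer. The diabetic library pooled 4 corneas of 2 mice given streptozotocin once at 160 mg/kg, a toxin of the insulin-producing beta cells, whose blood glucose then stayed above 250 mg/dL through 12 weeks. With 1 library per group no difference between them could be tested, and mouse, pool, handling and diabetes cannot be told apart. There were 9605 control cells with a median depth of 16487 UMIs and 8203 diabetic cells with a median depth of 17677. The authors gave each cell 1 of 8 labels, of which 7 are epithelial: LSC, Basal, TAC1, TAC2, Wing, Squam and Conj. Markers of dividing cells (Pcna, Rrm2, Tyms, Mki67, Top2a, Ube2c and Ccnb1) summed to 1777 CPM in control and 1930.1 in diabetic TAC2 (CPM is the summed count of a gene scaled by the total count of the same cells), to 429 and 441 in TAC1, and to 40.9 and 35.7 in Squam. Only 18 cell barcodes occurred in both libraries.

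Replication-dependent histone genes supply the histones that package newly copied DNA, and their RNA accumulates in S phase and is destroyed when DNA synthesis stops. Their transcripts mostly lack introns and end in a conserved stem-loop that is bound by the stem-loop binding protein SLBP, where other messenger RNAs carry a poly(A) tail. Linker histone H1 binds where DNA enters and leaves the nucleosome, and some members of every class are also made outside S phase as polyadenylated RNA. In the corneal epithelium, transit amplifying cells divide near the base, and their progeny stop dividing as they move to the wing and squamous layers. The libraries were made from polyadenylated RNA read near its 3′ end, so the level of a histone gene here depends on how much of its RNA was captured through a poly(A) stretch, which may differ between genes.

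The 3′ stem-loops of some of the more abundant members are shown because they mark which RNAs belong to this class. The distance from the stem-loop to the annotated end also differs widely among them. The 16 bases of the stem-loop are in capitals, a stem of 6 base pairs around a loop of 4 bases, with up to 5 flanking bases in lower case, 5′ to 3′ on the strand of the transcript.
Hist1h2ap (chr13:21833029-21833044, minus strand): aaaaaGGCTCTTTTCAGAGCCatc
Hist1h2ae (chr13:23570668-23570683, minus strand): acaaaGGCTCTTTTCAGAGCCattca
Hist1h1e (chr13:23621782-23621797, minus strand): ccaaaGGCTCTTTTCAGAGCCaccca
Hist1h1c (chr13:23739512-23739527, plus strand): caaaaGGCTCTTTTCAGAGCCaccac
Hist3h2a (chr11:58955172-58955187, plus strand): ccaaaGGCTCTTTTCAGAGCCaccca
Hist2h2aa1 (chr3:96246032-96246047, plus strand): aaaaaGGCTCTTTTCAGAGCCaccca
Hist1h4d (chr13:23581950-23581965, plus strand): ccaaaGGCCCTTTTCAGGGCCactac
Hist1h4i (chr13:22040966-22040981, minus strand): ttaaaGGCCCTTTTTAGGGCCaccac
Hist1h3e (chr13:23561903-23561918, minus strand): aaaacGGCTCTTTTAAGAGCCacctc

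A stem-loop of this form was found on the sense strand of the longest coding transcript of 45 of the 64 members and of 63 of all 21901 protein-coding genes, 0.288%. The form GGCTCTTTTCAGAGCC was carried by 25 members, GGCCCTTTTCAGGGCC by 7 and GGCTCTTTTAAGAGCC by 6. In 22 members the annotated end lay within 100 bases of the stem-loop, and these were also the only 22 protein-coding genes with a stem-loop in their last 100 bases, 0.1% of all. The annotated transcript of Hist1h2ap ended 3 bases after its stem-loop, and that of Hist2h2aa1 ended 35 bases after it. In 23 other members the transcript ran further, by 151 bases in Hist1h2ae, 369 in Hist1h3e, 770 in Hist1h4d, 840 in Hist1h1c, 1153 in Hist1h1e and 1643 in Hist3h2a. A further 11 members, Hist1h1b among them, had no annotated 3′ UTR, and 8 had one without a stem-loop. Hist1h2bc was one of these 8, with 2 exons and a 3′ UTR of 742 bases. A polyadenylation signal (AATAAA or ATTAAA) stood in the last 50 bases of 16 of the 64 members, against 72.2% of protein-coding genes.

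Upstream sequence of 4 members is shown because these genes behaved differently between labels and libraries. Sequences and starts are RefSeq's on GRCm38.p6, read 5′ to 3′ on the gene's strand, and capitals mark the CCAAT box, the TATA box motif TATAAA, the octamer motif ATTTGCAT and the H1 box motif AAACACA, each on either strand.
Hist1h1b, linker histone (chr13:21780626-21780795, minus strand): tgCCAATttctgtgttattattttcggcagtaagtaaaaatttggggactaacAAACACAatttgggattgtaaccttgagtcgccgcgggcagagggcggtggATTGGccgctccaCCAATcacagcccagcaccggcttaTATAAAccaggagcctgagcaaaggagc
Hist1h1c, linker histone (chr13:23738637-23738806, plus strand): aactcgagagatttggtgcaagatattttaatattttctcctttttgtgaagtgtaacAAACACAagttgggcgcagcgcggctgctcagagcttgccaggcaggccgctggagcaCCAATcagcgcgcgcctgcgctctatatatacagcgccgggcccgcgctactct
Hist1h2ap, an H2A gene (chr13:21833508-21833645, minus strand): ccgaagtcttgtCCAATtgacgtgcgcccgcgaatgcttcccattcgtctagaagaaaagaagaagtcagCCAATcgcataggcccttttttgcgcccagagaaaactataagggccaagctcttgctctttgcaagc
Hist1h2ae, an H2A gene (chr13:23571221-23571390, minus strand): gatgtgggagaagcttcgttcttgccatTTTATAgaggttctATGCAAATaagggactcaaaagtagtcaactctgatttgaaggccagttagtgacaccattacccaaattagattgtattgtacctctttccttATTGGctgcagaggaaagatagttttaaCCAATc

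In windows of 250 bases before to 50 bases after the RefSeq start, available for 59 members, CCAAT occurred on either strand in 50 members, 84.7%, against 37.4% of all 32851 promoters. TATAAA occurred in 33 members, 55.9%, against 13.6% of all promoters. The octamer motif occurred in 11 members, 18.6%, against 1.74%, and these were 6 H2A and 5 H2B genes. Windows of genes that lie head to head overlap, so a site can count for both. The octamer and the TATAAA match marked for Hist1h2ae are the same bases as those of Hist1h2bg. Hist1h2ah and Hist1h2bk likewise share their octamer. Hist1h2be has 2 RefSeq windows. The first was used and lacks the octamer, while the other holds it, so this gene is not among the 11. The H1 box motif occurred in 7 members, 11.9%, against 7.18%, and 5 of those were among the 6 H1 genes. Hist1h1b and Hist1h1c both held AAACACA, with its first base 117 and 112 bases before the start, and a CCAAT with its first base 53 and 54 bases before it. A match describes the letters in this window and was not tested as a site.

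Histone RNA was concentrated in the cells labelled TAC2. The 64 members summed to 3387 CPM in control against 3706 CPM in diabetic TAC2 cells, against 291 and 292 CPM in TAC1, 224 and 231 CPM in Wing and 454 and 357 CPM in Squam. TAC2 held 6.84% of control cells and 42.4% of their histone UMIs (exact binomial 95% interval 42.1 to 42.7%), and 8.61% of diabetic cells and 58.2% of theirs (57.9 to 58.5%). Which genes the authors' clusters were made from is not given in the sources used here. The members may be among them, so levels by label are a description. With both libraries summed, 52 of the 57 measured members had their highest level in TAC2. In the control library alone the number was 50, since Hist2h2aa1 peaked in Squam and Hist2h4 in LSC, and in the diabetic library it was 52. The excess over all other epithelial cells spanned a wide range, from 143.7-fold for Hist1h3b, an H3 gene, and 142.7-fold for Hist1h2af, an H2A gene, down to 2.95-fold for Hist2h2aa1 among those 52. For Hist2h2aa1 the libraries differed, with 9.397% of its UMIs in TAC2 in control and 39.2% in the diabetic library.

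The 5 measured members that peaked elsewhere were Hist1h2bc and Hist2h3c1 in Squam, Hist2h3c2 and Hist2h2be in Conj, and Hist3h2a in LSC. Hist1h2bc, an H2B gene and the member with the most UMIs, reached 296 CPM in control against 207 CPM in diabetic Squam cells, against 117 and 126 CPM in TAC2. Hist3h2a, an H2A gene outside the large clusters, stood at 48.2 and 37.6 CPM in LSC and at 21.2 and 22.3 CPM in TAC2. These 2 genes therefore did not follow the division markers across labels. Hist2h3c1, an H3 gene, stood at 1.59 CPM in control against 2.62 CPM in diabetic Squam cells. Hist2h3c2, another H3 gene, stood at 1.44 and 2.96 CPM in Conj, from 16 and 33 UMIs. Hist2h2be, an H2B gene, stood at 1.71 and 2.06 CPM in Conj, from 19 and 23 UMIs. The last 3 were scarce in every label.

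**Figure D1:**
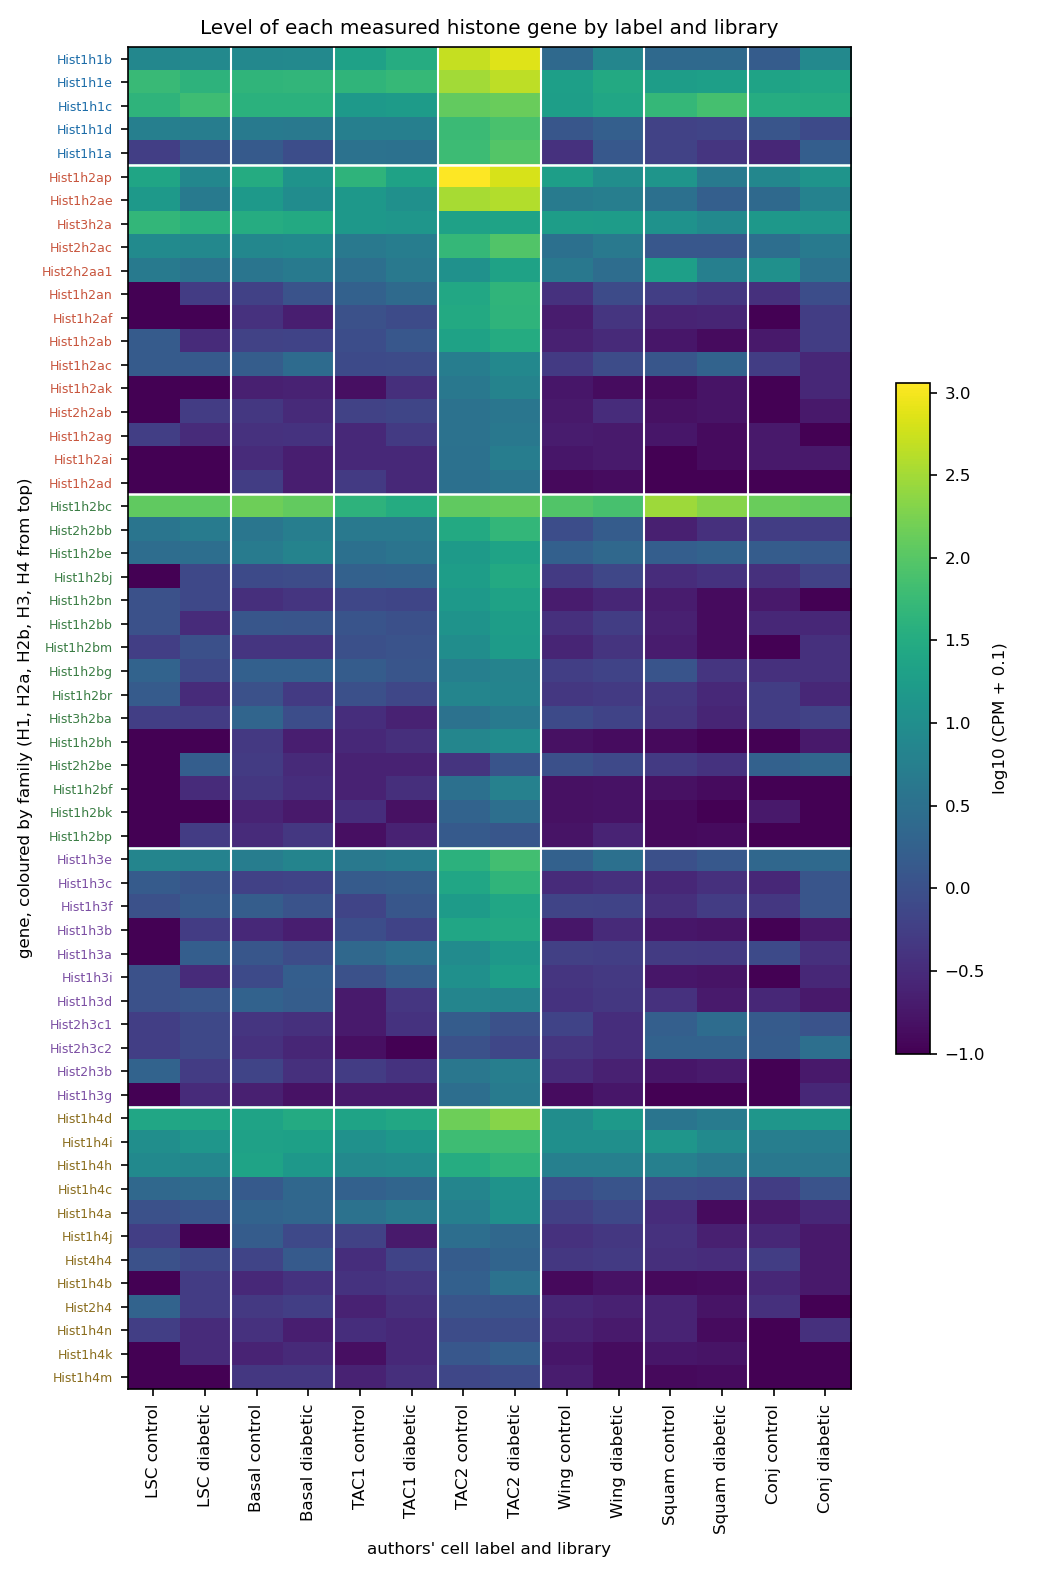
Level of each of the 57 measured members (rows, grouped by family) in each epithelial label and library (columns), as log10 of CPM plus 0.1. Most rows are brightest in the TAC2 columns, whereas Hist1h2bc is brightest in Squam, at 296 CPM in control against 207 CPM in diabetic cells.

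The make-up of the histone RNA differed between labels. H2A genes gave 49.3% of histone UMIs in control and 35.8% in diabetic TAC2 cells. H2B genes gave 66.3 and 59.1% in Squam, nearly all of it from Hist1h2bc, and 7.33 and 8.73% in TAC2. H1 genes gave 31.3% in control and 40.2% in diabetic TAC2, and H3 genes 4.23 and 5.88%. Among H1 UMIs, Hist1h1b gave 47.8% in control and 49.6% in diabetic TAC2 and 3.28 and 2.46% in Squam. The share of Hist1h1c ran the other way, at 11.4 and 9.08% in TAC2 and 69.9 and 76.5% in Squam. Hist1h1e gave 29.5 and 29.9% in TAC2 and 46.5 and 47.1% in Basal. Both libraries showed this shift in the shares of Hist1h1b and Hist1h1c between TAC2 and Squam. It is a shift of shares only. With both libraries summed, the level of Hist1h1c was also highest in TAC2, at 129 CPM against 33.6 CPM in other epithelial cells.

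**Figure D2:**
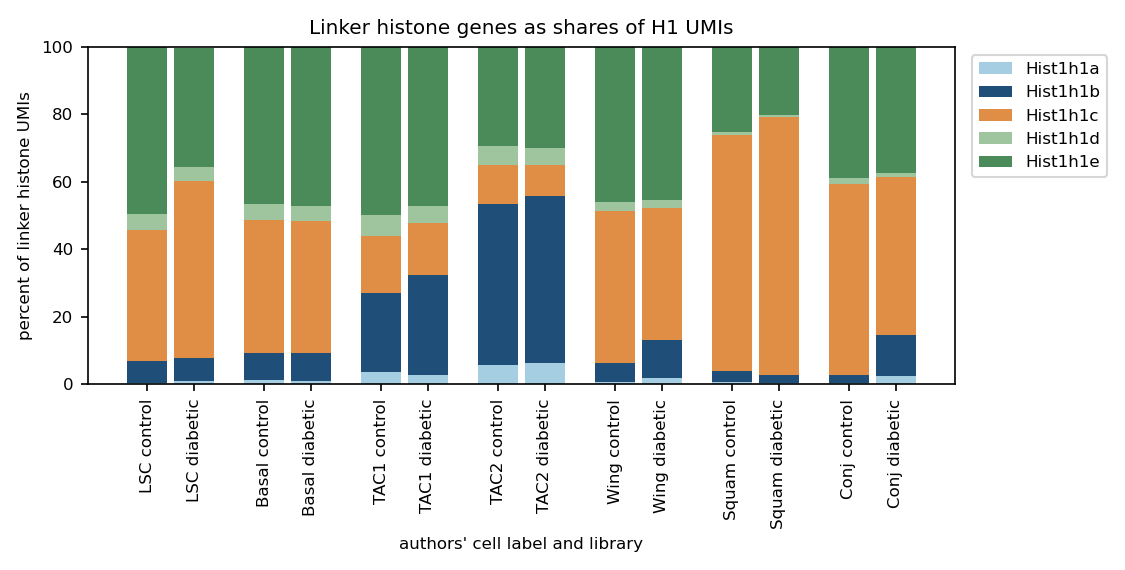
Share of linker histone UMIs (percent) given by each H1 gene in each label and library. Hist1h1b fills 47.8% and 49.6% of the TAC2 bars and Hist1h1c fills 69.9% and 76.5% of the Squam bars.

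Over all cells, histone RNA was higher in the diabetic library. The members summed to 524 CPM in control against 658 CPM in diabetic cells, a ratio of 1.26 (exact 95% interval 1.247 to 1.268, counting error only, as for every interval here). A size rule was used in place of a test: a CPM ratio of at least 1.5 either way, at least 50 summed UMIs and 95% Poisson intervals that do not overlap. It describes these 2 libraries. By this rule 34 of 57 measured members, 59.6%, were higher in the diabetic library, against 5.98% of all 13846 measured genes, and 0 were lower, against 2.8% of all genes. The count was 17 when every cell was thinned to 5000 UMIs, which lowers the counts, widens their intervals and gives each cell the same weight. The ratio of the sum was also smaller then, with a log2 ratio of 0.19 against 0.33 before thinning. The matching share of all genes was not computed for thinned cells. The median log2 ratio was 0.76 over the measured members and 0.07 over all measured genes, and 49 of 57 members had a ratio above 1. By family, 4 of 5 H1, 10 of 14 H2A, 8 of 15 H2B, 7 of 11 H3 and 5 of 12 H4 genes were higher.

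Cell make-up and depth moved with this difference. TAC2 cells gave 6.56% of control and 10.3% of diabetic UMIs, and their median depth was 16629 UMIs in control and 24500 in diabetic cells. With each label given the same weight in both libraries, the sum was 587 CPM in control against 590 CPM in diabetic cells, a ratio of 1.004. With those weights 13 members were higher, against 3.18% of all genes, and 2 were lower, against 2.43%. All 13 were among the 34: Hist1h1a, Hist1h2ac, Hist1h2ak, Hist1h2an, Hist2h2ac, Hist1h2bf, Hist1h2bj, Hist1h2bm, Hist2h2bb, Hist1h3c, Hist1h3e, Hist1h3i and Hist1h4b. The other 21 did not pass with equal weights. The 2 lower were Hist1h2ap, at 118 and 64.8 CPM, and Hist1h4j, at 0.730 and 0.482 CPM. Hist1h2bc also fell, from 140 to 112 CPM, without passing the rule. The near-equal sum therefore combined lower levels of Hist1h2ap and Hist1h2bc with higher members. No equal-weight sum without Hist1h2ap was computed. The larger TAC2 share thus moved with the excess over all cells, and some members also passed the rule with equal weights.

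Within TAC2 most members were somewhat higher in the diabetic library and 1 abundant member was lower. The sum differed little, at 3387 and 3706 CPM (ratio 1.09, 1.081 to 1.108), and 15 of 49 members with enough UMIs were higher, 30.6%, against 2.21% of all 10852 genes measured there. Only Hist1h2ap was lower, 2.04% of members against 1.35% of genes. The median log2 ratio was 0.54 over these members and 0.04 over all genes, and 45 of 49 ratios were above 1. Of the 15 higher members, 14 were also higher over all cells, the exception being Hist2h2aa1. Left out of the sum, Hist1h2ap turned the TAC2 values into 2237 and 3057 CPM, a ratio of 1.37 (1.347 to 1.386). In these cells the 20 S phase genes summed to 1577 CPM in control against 1501 CPM in diabetic cells with 0 genes past the rule, and the 17 G2/M genes to 3260.3 and 3639 CPM, also with 0. Keratocyte markers, 2 of which are in the matrix, summed to 66.8 and 105 CPM there and the 6 LSC markers to 2283 and 3129 CPM, with 2 of 6 past the rule. The Conj markers summed to 278 and 316 CPM, 3 of 5 higher, and the Squam markers to 459 and 356 CPM, 2 of 5 lower, and the part of these markers in the result was not tested.

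**Figure D3:**
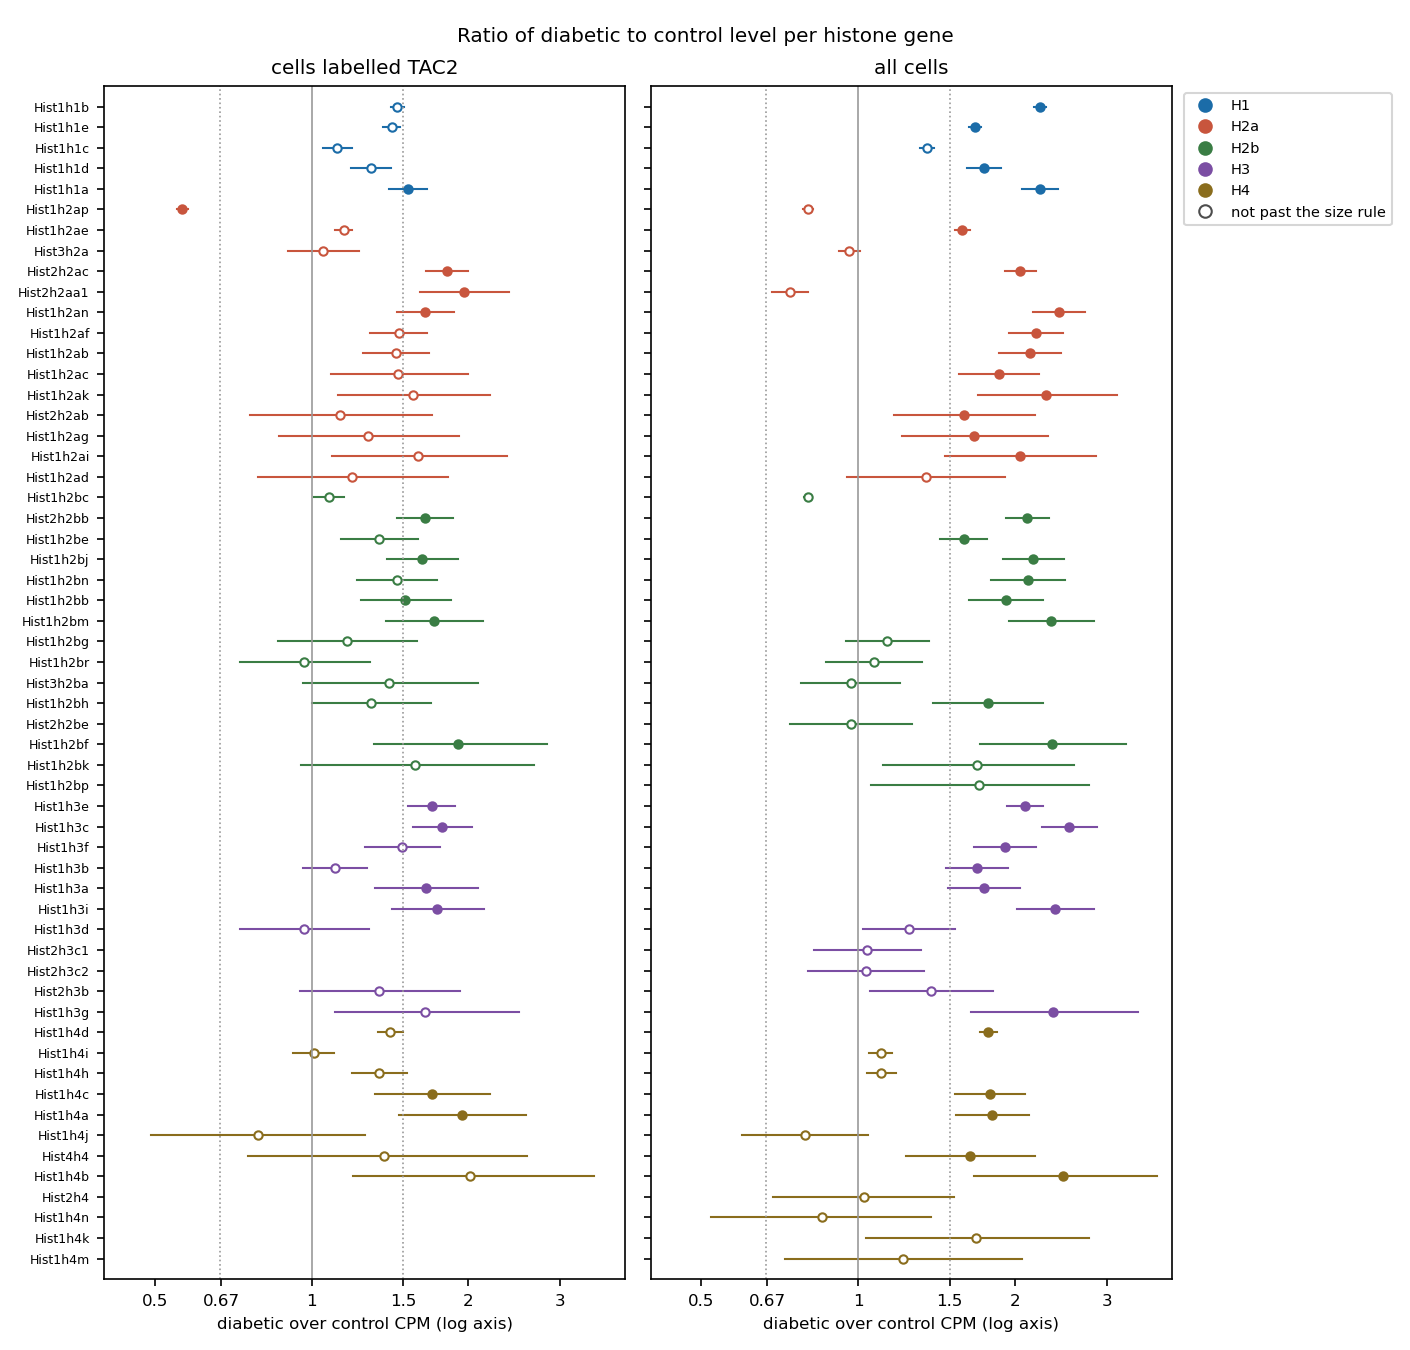
Ratio of diabetic to control CPM (log axis) for each member with at least 50 UMIs, in TAC2 cells (left) and in all cells (right), with exact 95% intervals for counting error. Filled points passed the size rule, dotted lines mark ratios of 1.5 up and down, and Hist1h2ap is the single filled point left of 1, at 0.564 in TAC2.

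Linker histone genes gave 24.9% of histone UMIs in control and 35.1% in diabetic cells. They summed to 130.4 CPM in control against 231 CPM in diabetic cells (ratio 1.77, past the rule), and to 1059 and 1490.0 CPM in TAC2 (ratio 1.41, not past it). Hist1h1b (chr13:21779883-21780625), which encodes a linker histone abundant in dividing cells, was at 38.2 CPM in control against 85.3 CPM in diabetic cells, a ratio of 2.23 (2.172 to 2.296). With the same label weights the ratio was 1.485, no longer past the rule, and those of Hist1h1e and Hist1h1d were 1.303 and 1.226. In TAC2 it was at 506 and 739 CPM, a ratio of 1.46 (1.418 to 1.505), just under the size rule. It passed the rule in TAC1, at 20.9 and 32.9 CPM (ratio 1.57), in Wing, at 2.35 and 7.26 CPM (3.096), and in Conj, at 1.44 and 8.16 CPM from 16 and 91 UMIs (5.66). The Conj UMIs lay in 14 of 465 control and 18 of 440 diabetic cells. Basal, at 7.72 and 8.17 CPM, and Squam, at 2.36 and 2.35 CPM, differed by less than the counting error. A UMI of Hist1h1b was found in 60.6% (56.7 to 64.3%) of control and 70.1% (66.6 to 73.5%) of diabetic TAC2 cells, and in 46.2 and 55.1% after every cell was thinned to 5000 UMIs. In Squam, where the division markers were low, those shares were 2.46 and 1.71% before thinning, at median depths of 22382 and 21047 UMIs, and 0.584 and 0.535% after it.

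Hist1h1e (chr13:23620629-23622558), a linker histone gene made in most cells, was at 45.8 CPM in control against 76.6 CPM in diabetic cells (ratio 1.67). In TAC2 it was at 312 and 445 CPM (1.43), and in Wing at 19.2 and 29.2 CPM (1.52, past the rule). Its annotated transcript overlaps Hist1h2be on the same strand. Of the 90-base windows in its last 400 bases, 100% occur in another gene, so reads of the pair may not have been told apart. Over all members 45 share at least 1 such window and 27 share over 50% of them. Hist1h1c (chr13:23738808-23740367), the linker histone gene that led in Squam, was at 35.7 and 48.4 CPM over all cells (1.36) and at 50.3 and 73.3 CPM in Squam (1.46, 1.371 to 1.549), both under the rule. Its TAC2 levels of 121 and 135 CPM had a ratio of 1.12 that turned below 1 after thinning, with a log2 ratio of -0.13. Hist1h1d was at 5.91 and 10.3 CPM over all cells (1.74) and at 59.5 and 77.4 CPM in TAC2 (1.30). Hist1h1a was at 4.81 and 10.8 CPM over all cells (2.24) and at 61.1 and 93.5 CPM in TAC2 (1.53), past the rule in both. Hist1h1t, whose protein is known from the testis, had 0 UMIs in control and 4 in diabetic cells.

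Of the 14 H2A genes measured in TAC2, Hist1h2ap (chr13:21833026-21833507) was the only one with a ratio below 1 there. It was at 1149.5 CPM in control against 649 CPM in diabetic TAC2 cells, 1.77-fold lower. It was lower past the rule in 6 of the 7 epithelial labels. Beyond TAC2 it stood at 23.9 and 7.60 CPM in LSC, 31.4 and 11.9 CPM in Basal, 43.8 and 21.6 CPM in TAC1, 19.1 and 10.1 CPM in Wing and 12.8 and 4.68 CPM in Squam. Conj ran the other way in CPM, at 7.38 and 12.7 CPM from 82 and 142 UMIs. These UMIs lay in 52 of 465 control and 29 of 440 diabetic Conj cells, so the share of cells was lower in the diabetic library. Over all cells, where TAC2 weighs more in the diabetic library, Hist1h2ap was at 96.0 and 77.0 CPM (0.802). Hist2h2aa1 and Hist3h2a also had ratios below 1 there. A UMI of Hist1h2ap was found in 71.8% of control and 70.4% of diabetic TAC2 cells, and in 56.3 and 57.1% after thinning. In Basal the share was 28.7 and 13.8%, at median depths of 13146 and 14439 UMIs. Cells outside the dividing labels also held such UMIs: 12.2 and 4.31% of Squam cells, and 7 of 26 control and 0 of 10 diabetic Immune cells (26.9%, exact 95% interval 11.6 to 47.8%, and up to 30.8%). The part of RNA from outside the cell in the low levels of Hist1h2ap outside TAC2 was not tested.

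The UMIs of Hist1h2ap per UMI of Hist1h1b need no scaling by library size, but combine the differences of both genes. In TAC2 they were 2.27 in control and 0.878 in diabetic cells, in Wing 8.14 and 1.39, in Basal 4.07 and 1.46 and in Conj 5.13 and 1.56. Within each library the ratio differed between labels. In all 7 epithelial labels it was lower in the diabetic library, also in Conj, where both genes had a higher CPM. Of the 90-base windows in the last 400 bases of Hist1h2ap, 100% occur in another gene, other H2A genes among them. How reads that fit several genes were counted is not given in the sources used here, so the level of Hist1h2ap is uncertain.

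Hist1h2ae (chr13:23570517-23571220), the next H2A gene in abundance, was at 28.9 CPM in control against 45.8 CPM in diabetic cells (ratio 1.59) and at 337 and 388 CPM in TAC2 (1.15, under the rule). It was lower past the rule in LSC, at 15.1 and 4.56 CPM from 33 and 21 UMIs, in Basal, at 15.3 and 9.36 CPM, and in Squam, at 3.02 and 1.60 CPM. In Conj its CPM was higher, at 2.34 and 6.27 CPM from 26 and 70 UMIs. These lay in 23 of 465 control and 24 of 440 diabetic cells. So Hist1h2ae and Hist1h2ap had the same direction of CPM in LSC, Basal, Squam and Conj. The 17 G2/M genes summed to 57.4 and 172 CPM in LSC, 53.6 and 48.3 CPM in Basal, 27.6 and 16.1 CPM in Squam and 15.9 and 37.3 CPM in Conj, and their part in these differences was not tested. Hist3h2a (chr11:58954685-58956830) differed little, at 19.1 and 18.4 CPM over all cells (ratio 0.963, 0.918 to 1.0098).

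Hist2h2aa1 (chr3:96245497-96246082), an H2A gene of the Hist2 cluster, had opposite directions in different labels. In Squam it was at 19.7 CPM in control against 5.66 CPM in diabetic cells, 3.48-fold lower. Conj, at 10.9 and 3.32 CPM, and Wing, at 4.08 and 2.68 CPM, were lower too, while TAC2 was higher, at 11.3 and 22.1 CPM (ratio 1.96, 1.615 to 2.387). A UMI of it was found in 33.2% of control and 11.4% of diabetic Squam cells, and in 9.93 and 2.29% of them after thinning to 5000 UMIs. In control cells its level was thus higher in Squam than in TAC2, and in diabetic cells it was lower. All of its windows occur in other genes, Hist2h2aa2 among them, and it overlaps a gene on the same strand, so its identity is uncertain.

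The remaining H2A genes that passed the rule over all cells were all higher in the diabetic library and peaked in TAC2. Hist2h2ac was at 6.71 CPM in control against 13.7 CPM in diabetic cells, and at 50.3 and 91.4 CPM in TAC2 (ratio 1.82). Hist1h2an was at 2.29 and 5.55 CPM, and at 27.6 and 45.5 CPM in TAC2 (1.65), and both passed the rule in both comparisons. Hist1h2af was at 2.15 and 4.72 CPM and Hist1h2ab at 1.68 and 3.58 CPM, with TAC2 ratios of 1.47 and 1.45 that did not pass. The lower-count genes were Hist1h2ac at 1.07 and 2.00 CPM, Hist1h2ak at 0.336 and 0.772 CPM, Hist2h2ab at 0.377 and 0.602 CPM, Hist1h2ag at 0.346 and 0.579 CPM and Hist1h2ai at 0.3005 and 0.614 CPM. Hist1h2ad, at 0.321 and 0.433 CPM, did not pass.

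Among H2B genes, Hist1h2bc (chr13:23684199-23692908) set the sum. It was at 140.4 CPM in control against 112 CPM in diabetic cells (ratio 0.801, 0.787 to 0.816), and at 296 and 207 CPM in Squam (0.700). Neither passed the rule. It stood at 117 and 114 CPM in LSC, 145 and 120.3 CPM in Basal, 41.5 and 31.7 CPM in TAC1, 92.4 and 76.5 CPM in Wing and 137 and 123.5 CPM in Conj, and no label passed. Without it, the other H2B genes summed to 16.7 CPM in control against 29.5 CPM in diabetic cells (ratio 1.77) and to 131 and 197 CPM in TAC2 (1.501), both past the rule. So the H2B sum over all cells, 157 and 142 CPM, had the direction of 1 gene.

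Of the other H2B genes, Hist2h2bb was at 3.42 CPM in control against 7.23 CPM in diabetic cells, and at 29.5 and 48.7 CPM in TAC2 (ratio 1.65). Hist1h2be, which overlaps Hist1h1e, was at 3.24 and 5.16 CPM and at 16.5 and 22.2 CPM in TAC2 (1.35, not past the rule). Hist1h2bj was at 1.72 and 3.72 CPM and at 18.2 and 29.6 CPM in TAC2 (1.63). Several H2B genes with fewer UMIs passed as well. Hist1h2bb was at 1.22 and 2.34 CPM (TAC2 ratio 1.51), Hist1h2bm at 0.876 and 2.06 CPM (1.72) and Hist1h2bf at 0.306 and 0.719 CPM (1.91), all past the rule in TAC2. Hist1h2bn, at 1.18 and 2.49 CPM, and Hist1h2bh, at 0.581 and 1.03 CPM, passed it over all cells only. Of the 7 H2B genes that did not pass over all cells, Hist2h2be, at 0.626 and 0.608 CPM, and Hist3h2ba, at 0.942 and 0.912 CPM, were closest to equal.

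H3 genes, which encode the replication-coupled form of H3, were scarcer and mostly higher in the diabetic library. They summed to 16.1 CPM in control against 30.8 CPM in diabetic cells (ratio 1.91) and to 143 and 218 CPM in TAC2 (1.52), past the rule in both. Hist1h3e (chr13:23561534-23562369) was at 4.99 and 10.4 CPM, and at 40.0 and 67.9 CPM in TAC2 (1.70), with 71.4% of its windows shared with Hist1h3f. Hist1h3c was at 2.03 and 5.15 CPM (ratio 2.54, the highest of the measured members over all cells), and at 25.2 and 44.8 CPM in TAC2 (1.78). Hist1h3f was at 1.72 and 3.28 CPM and Hist1h3b at 1.82 and 3.08 CPM, past the rule over all cells but not in TAC2, with ratios of 1.49 and 1.11 there. Hist1h3a, at 1.32 and 2.30 CPM, and Hist1h3i, at 1.06 and 2.54 CPM, passed it in both. Hist1h3g was at 0.234 and 0.555 CPM. Hist2h3c1, at 0.774 and 0.807 CPM, and Hist2h3c2, at 0.677 and 0.702 CPM, were the H3 genes nearest to equal, and these were also the H3 genes that did not peak in TAC2.

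H4 genes summed to 52.5 CPM in control against 74.6 CPM in diabetic cells (ratio 1.42). Hist1h4d (chr13:23581598-23582735), the most abundant, was at 21.4 and 38.0 CPM (1.78) and at 147 and 208 CPM in TAC2 (1.42, under the rule). Hist1h4i (chr13:22040636-22041362) was at 15.97 and 17.6 CPM and at 62.8 and 63.3 CPM in TAC2, and Hist1h4h at 10.3 and 11.5 CPM and at 32.6 and 43.99 CPM in TAC2. Neither of these passed the rule. The scarcer Hist1h4c was at 1.38 and 2.47 CPM (TAC2 ratio 1.70) and Hist1h4a at 1.26 and 2.29 CPM (1.94), past it in both comparisons. Hist4h4, at 0.438 and 0.719 CPM, and Hist1h4b, at 0.194 and 0.479 CPM, passed it over all cells only. Hist1h4j was at 0.657 and 0.520 CPM over all cells (0.792, 0.598 to 1.046) and was lower past the rule in Basal, as was Hist1h4h, while Hist1h4i was lower past it in Squam. H4 thus held genes on both sides of equality.

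In the other labels fewer members had enough UMIs to be measured, and directions were mixed. In TAC1 1 of 25 was higher (Hist1h1b, against 1.7% of genes) and 1 lower (Hist1h2ap, against 1.52%). In LSC 0 of 11 were higher (2.63%) and 2 lower (2.61%), Hist1h2ap and Hist1h2ae. Basal had 3 of 29 higher (2.63%), Hist1h2ac, Hist1h3i and Hist4h4, and 5 lower (2.38%), among them Hist1h4h at 22.4 and 14.3 CPM, Hist3h2ba at 1.99 and 0.799 CPM and Hist1h4j at 1.42 and 0.681 CPM. Wing had 8 of 28 higher, 28.6% (3.93% of genes) and 2 lower (2.59%), Hist1h2ap and Hist2h2aa1. The 8 were Hist1h1a, Hist1h1b, Hist1h1e, Hist1h2ac, Hist1h2an, Hist1h3e, Hist1h4d and Hist2h2bb, of which Hist1h1a stood at 0.279 and 1.21 CPM and Hist1h4d at 9.63 and 15.5 CPM. The G2/M genes summed to 29.7 and 47.5 CPM in Wing, 7 of 16 past the rule, and their part was not tested. In Squam 1 of 19 was higher (1.79%), Hist2h3c1, and 5 lower (7.75%), including Hist1h4i at 13.3 and 8.66 CPM and Hist1h2bg at 1.05 and 0.327 CPM. In Conj 3 of 13 were higher (2.52%), Hist1h1b, Hist1h2ap and Hist1h2ae, and 1 lower (1.95%), Hist2h2aa1.

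When cells were sorted by cycle genes instead of by label, 1 class held 40.7% of histone UMIs in control and 52.5% in diabetic cells, the cells positive for both S phase and G2/M genes. Epithelial cells were thinned to 5000 UMIs, which left out shallower ones. They counted as positive for the S phase or the G2/M list, neither of which holds a histone member, at 2 or more UMIs of it. Cells positive for both had 2712 CPM of histone RNA in control and 3153 CPM in diabetic cells (ratio 1.16, 1.133 to 1.193). Those positive for S alone had 316 and 296 CPM, below the 343 and 315 CPM of cells positive for neither. Members differed in this. Hist1h2bc was lower with S alone, at 91.6 and 74.4 CPM against 158 and 126 CPM with neither, and so was Hist1h1c. Hist1h1b was higher with S alone, at 10.1 and 12.3 CPM against 2.76 and 3.21 CPM. Hist1h2ap was higher too, at 28.3 and 13.4 CPM against 14.6 and 6.02 CPM, as were Hist1h1e and Hist1h2ae. The other members were not split by class. Those positive for G2/M alone had 1024 and 885 CPM. The double-positive class took in 70.7% of control and 76.2% of diabetic TAC2 cells. Among all epithelial cells with at least 5000 UMIs it took 8.23% in control and 10.4% in the diabetic library.

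Hist1h1b followed this class closely, at 397 CPM in control against 608 CPM in diabetic double-positive cells and at 15.5 and 28.1 CPM with G2/M alone. Hist1h2ap was at 885 and 543 CPM in double-positive cells and at 62.0 and 32.6 CPM with G2/M alone. Hist1h2bc had another profile, highest with G2/M alone, at 324 and 289 CPM, and at 97.1 and 96.4 CPM in double-positive cells. Hist1h1c was likewise highest with G2/M alone, at 220 and 166 CPM. The G2/M-only class held 245 control and 270 diabetic cells, and 1120 control and 978 diabetic cells had 1 or 2 UMIs of the G2/M list, next to the cut-off. For the S phase list 3402 of 9115 control and 2930 of 7938 diabetic cells had 1 or 2 UMIs. All of these classes are therefore ranges and not cell types.

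**Figure D4:**
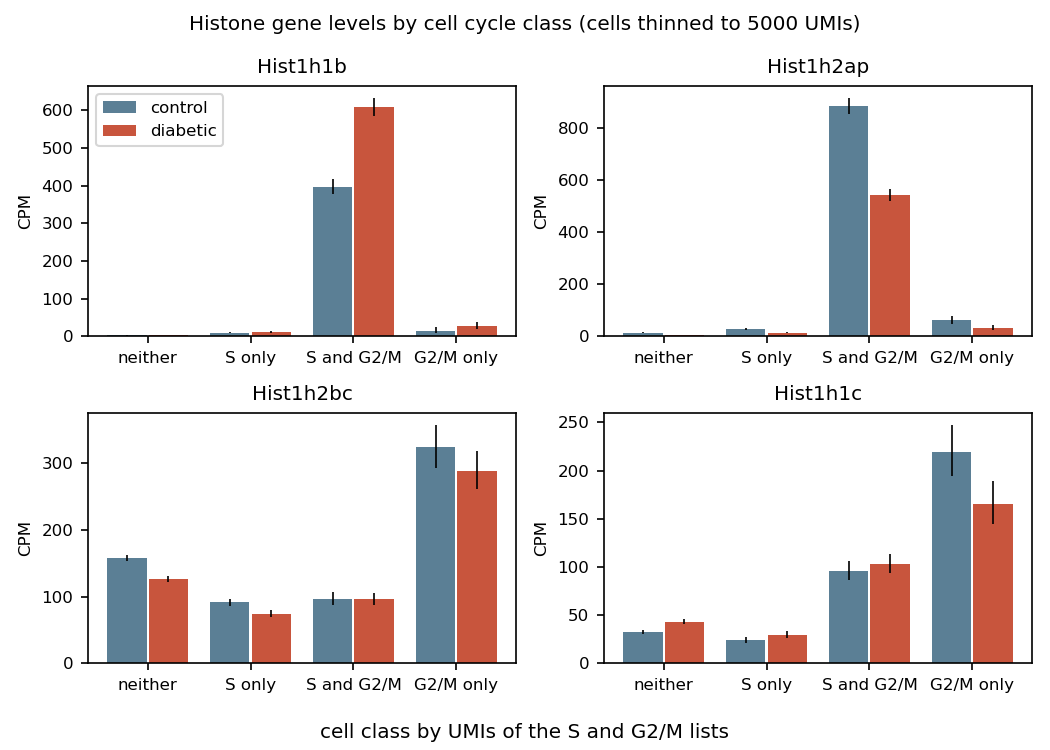
CPM of 4 members in cells sorted by UMIs of the S phase and G2/M lists, after thinning to 5000 UMIs, with exact 95% Poisson intervals. Hist1h1b and Hist1h2ap peak in cells positive for both lists, at 397 and 885 CPM in control, whereas Hist1h2bc and Hist1h1c peak in cells positive for G2/M alone, at 324 and 220 CPM in control.

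The annotated 3′ ends shown above went with how strongly members were concentrated in TAC2. The 19 measured members that end within 100 bases of the stem-loop had a median TAC2 level 33.4-fold that of other epithelial cells (range 2.95 to 143.7). For the 22 whose transcript runs further the median was 7.15-fold (1.10 to 85.5). The 9 without an annotated 3′ UTR had a median of 43.7-fold, and the 7 with a 3′ UTR but no stem-loop 14.8-fold. Members with a polyadenylation signal in their last 50 bases, 15 in number, had a median of 5.03-fold, against 29.2-fold for the 42 without. Exceptions included Hist1h2ae, with a signal and 53.9-fold, and Hist1h2bh, with a long end and 85.5-fold. Others were Hist2h2aa1, Hist1h4h, Hist1h4n and Hist1h4m, with short ends and 2.95-, 4.73-, 5.29- and 5.38-fold. These are descriptions over members that share sequence and clusters, and whether the end of the RNA sets its capture was not tested.

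**Figure D5:**
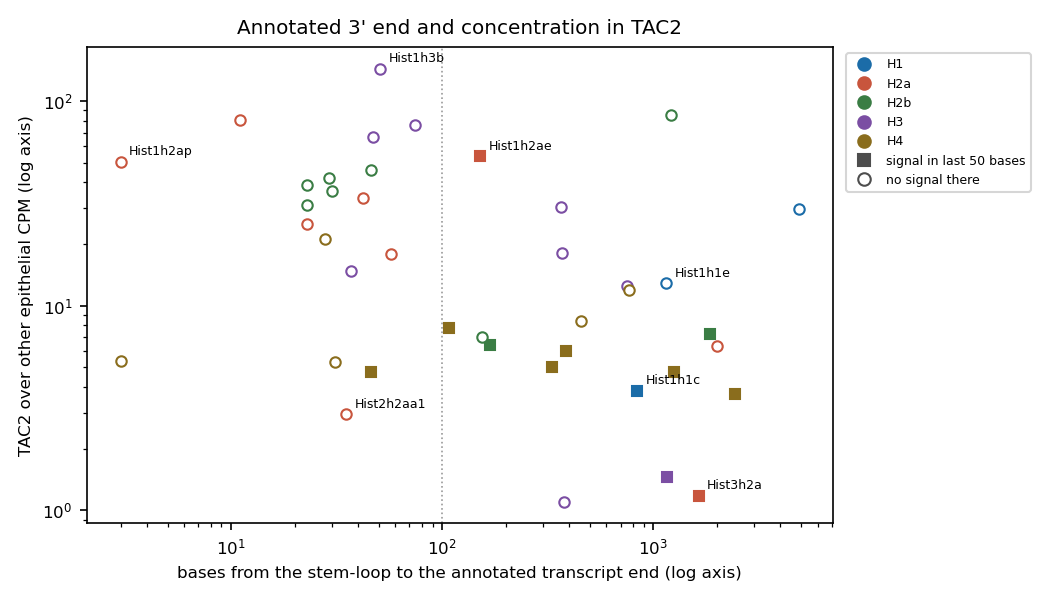
Bases from the stem-loop to the annotated transcript end (log axis) and level in TAC2 over other epithelial cells (log axis) for each measured member with a stem-loop. Squares have a polyadenylation signal in the last 50 bases, and most of them lie low on the vertical axis, whereas Hist1h2ae stands at 53.9-fold.

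Histone genes often lie head to head, and 10 such pairs of an H2A and an H2B gene stood with starts 176 to 302 bases apart. Levels within a pair were close in some and far apart in others. Hist1h2bf, at 3.11 and 5.94 CPM in TAC2, and Hist1h2ad, at 3.03 and 3.62 CPM, lay 185 bases apart. The 3 pairs that follow were the ones with an abundant member, chosen after their values were seen. Hist1h2ap, at 1149.5 and 649 CPM in TAC2, faces Hist1h2br, at 6.83 and 6.62 CPM there, across 236 bases. Hist1h2bc, at 296 and 207 CPM in Squam and highest there, faces Hist1h2ac, highest in TAC2 at 5.20 and 7.63 CPM, across 251 bases. Hist1h2ae, at 337 and 388 CPM in TAC2, faces Hist1h2bg, at 5.51 and 6.45 CPM, across 176 bases. The lower CPM of Hist1h2ap in diabetic TAC2 cells was not seen in its partner, whose ratio was 0.968 (0.728 to 1.292). Of the windows of Hist1h2br, 100% also occur in Hist1h2bq, so its level is uncertain as well.

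Of the genes that act with these histones, the shares past the rule over all cells lay near the 5.98% of all genes higher, and nothing is read from them. Of 11 measured replication-independent histone variants 1 was higher, Cenpa, the centromeric H3, at 15.0 CPM in control against 25.0 CPM in diabetic cells. H2afx was at 35.8 and 43.1 CPM, H2afy2 at 7.54 and 9.03 CPM, H2afj at 214 and 178 CPM, and the H3.3 genes H3f3a at 1904 and 1801 CPM and H3f3b at 1838 and 1687 CPM. Of 23 genes for the transcription and processing of histone RNA 1 passed, the zinc finger gene Zfp473, at 0.127 and 0.263 CPM. E2f1 was at 4.40 and 6.02 CPM, E2f2 at 1.24 and 1.71 CPM, Ccne1 at 10.7 and 9.39 CPM, Cpsf3 at 16.9 and 15.8 CPM and Lsm10 at 18.8 and 18.3 CPM. Slbp, the stem-loop binding protein, was at 44.4 and 46.5 CPM, Npat, the activator of histone gene transcription, at 9.41 and 10.6 CPM, and Lsm11, a part of the U7 particle that cuts histone RNA, at 5.01 and 5.81 CPM. Of 20 measured histone chaperones and partners Hirip3 passed, at 10.1 and 15.1 CPM, with Asf1b at 6.50 and 9.21 CPM and Chaf1a at 8.12 and 10.7 CPM under the rule. None of these 3 lists had a gene past the rule in TAC2. Of the 17 G2/M genes 17 were higher over all cells and 0 in TAC2, and of the 20 S phase genes 0 passed in either.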

How the data were processed

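Single-cell 3′ libraries were made with the Chromium v3.1 kit after digestion with enzyme G and 0.25% trypsin, per the labels' protocols. Per the submitters' processing notes, Cell Ranger 5.0.0, Seurat 4 and mm10 were used, with no role given. The deposited matrix holds UMI counts per gene and cell, whole and not normalized. The deposited cell table gives group and label, and its UMAP scores were not used. How cells were filtered and labels named is not given in the sources used here. Counts were summed per label and library and divided by all counts of those cells (CPM), with exact 95% Poisson, binomial and conditional binomial intervals (Python 3.11.15, scipy 1.17.1), which cover counting error only. No test between the libraries was possible. Thinning drew 5000 UMIs per cell and left out 486 control and 264 diabetic shallower cells. Scripts were tested on simulated data. Doublets stayed in and were left out as an alternative (scanpy 1.11.5). Values are named for the 3 members of each family with the most counts, all past the size rule over all cells or in TAC2, and all not highest in TAC2. Of the other lists, up to 3 genes per direction with the largest ratio are named, plus Slbp, Npat and Lsm11. Members and lists were chosen with earlier results of these data known. Stem-loops and windows were searched in GENCODE M21 transcripts.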

Additional observations from a re-analysis of the deposited data

Results flagged for a closer look

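Some members were higher past the size rule in the diabetic library in 1 label and lower past it in another. With 1 library per group these differences between labels were not tested. Hist1h2ap was higher in Conj (log2 ratio 0.79) and lower in LSC (-1.65), Basal (-1.40), TAC1 (-1.02), TAC2 (-0.83), Wing (-0.92) and Squam (-1.45). Hist1h2ae was higher in Conj (1.42) and lower in LSC (-1.73), Basal (-0.70) and Squam (-0.92). In Conj, a UMI of Hist1h2ap was found in 11.2% of control and 6.59% of diabetic cells. For Hist1h2ae these shares were 4.95 and 5.45%. Hist2h2aa1 was higher in TAC2 (0.97) and lower in Wing (-0.61), Squam (-1.80) and Conj (-1.72).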

How the results depend on the processing

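Each value was recomputed under the alternatives, and 38 of 63 recomputed sums, counts and shares moved by less than counting error or, for counts, by less than 1.5 times. The log2 ratio of the sum over all cells, 0.33, was 0.26 with median-of-ratios scaling, 0.30 without likely doublets, 0.19 with cells thinned to 5000 UMIs and 0.0059 with the same label weights. In TAC2 it was 0.13, and 0.094, 0.055 and 0.17 under the first 3 of these. Chosen after seeing the data were sums without Hist1h2ap (0.44 over all cells, 0.45 in TAC2 and 0.13 in TAC1, where it was 0.0041 with it) and sums over members sharing no window with another gene (0.29, 0.42 and 0.11). The number of members higher over all cells, 34, was 17 after thinning, 18 at a ratio of 2 and 13 with the same label weights, when 2 were lower. The share of all genes was not computed for thinned cells or for the ratio of 2. At a ratio of 2, 0 members were higher and 0 lower in TAC2. The TAC2 share of histone UMIs was 42.0 and 40.9% in control and 56.8 and 52.8% in diabetic cells without doublets and after thinning. The log2 ratio in cells positive for both cycle lists, 0.22, was 0.12 at 3 or more UMIs and 0.18 at 8000 UMIs. Among 70 values of single members, 38 stayed within counting error, 31 moved and 1 reversed, Hist1h1c in TAC2, from 0.16 to -0.13 after thinning. The cause was not tested. Leaving out 8% of cells by doublet score removed 19.0% of control and 20.7% of diabetic TAC2 cells. No paired analysis was possible because each group is 1 library, which also prevents leaving out a replicate. Depth limits the labels with few cells, where most members had under 50 UMIs.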
